A study of Homo sapiens with 2 samples.

Results

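A cassette exon is an exon that the spliced RNA of a gene either contains or leaves out whole. The exons described here are the cassette exons longer than 27 bases whose length is a multiple of 3, so that skipping one removes whole codons' worth of sequence and leaves the reading frame downstream in register. They were taken from tables that list, for each exon and its flanking junctions, the level of the form with the exon and of the form without it. Of 38293 such pairs of forms listed in both libraries, 15350 belonged to frame-preserving exons. Of all 39731 cassette pairs listed in either library, 774 were listed in the knockout-labelled library alone and 664 in wild type alone. For the 15947 frame-preserving pairs these counts were 325 and 272. Inclusion, the percentage of the summed level of both forms that came from the form with the exon, was compared for the 5270 pairs in which both forms together had at least 5 FPKM (fragments scaled to transcript length and library size) in each library. Those pairs covered 5197 exons of 3261 genes, with lengths of 30 to 7812 bases and a median of 105 bases.

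Poly-A RNA was sequenced in 2 libraries of LM3, an established human hepatocellular carcinoma cell line: 1 library from cells labelled NCOA5 knockout and 1 from wild-type cells. NCOA5 encodes a coregulator of nuclear receptors, and proliferation, migration and the epithelial-to-mesenchymal transition are the processes in the series title. The labels give neither the method of the knockout nor whether the cells came from 1 clone, and no treatment or time. Since each genotype has 1 library, no difference reported was checked against replicates, and each compares these libraries, not the genotypes.

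Exons can be skipped when the splicing machinery joins the donor site before them to the acceptor site behind them. Skipping a coding exon whose length is no multiple of 3 shifts the frame and usually brings an early stop codon, which exposes the RNA to nonsense-mediated decay. Skipping a frame-preserving exon instead gives a protein that lacks a segment, and cell types use such exons to make variants of receptors, adaptors, motors and coat proteins.

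The sequences of 9 exons show what such a switch adds or takes away. They are the 4 shortest wholly coding exons among the 11 named below with higher inclusion in the knockout-labelled library, the 4 shortest among the 11 with lower inclusion, and the start of the exon of NCOA5 that had alternative forms. Letters are those of the GENCODE 29 transcripts on hg38, in the sense of the gene. In the first 8 exons, capitals mark the edge bases that complete a codon begun in the exon before or that begin a codon finished in the exon behind.
PPFIBP1, chr12:27658816-27658848, plus strand: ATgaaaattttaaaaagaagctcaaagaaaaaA
LGALS9, chr17:27645314-27645349, plus strand: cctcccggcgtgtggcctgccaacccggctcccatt
GNAS, chr20:58898941-58898985, plus strand: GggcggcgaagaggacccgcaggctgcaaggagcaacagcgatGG
ZPR1, chr11:116782158-116782244, minus strand: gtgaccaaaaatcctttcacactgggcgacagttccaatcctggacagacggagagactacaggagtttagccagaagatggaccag
RCN2, chr15:76941637-76941690, plus strand: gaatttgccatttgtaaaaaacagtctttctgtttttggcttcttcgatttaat
YTHDC1, chr4:68332794-68332847, minus strand: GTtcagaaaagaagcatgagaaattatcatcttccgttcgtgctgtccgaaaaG
ARHGEF12, chr11:120409394-120409450, plus strand: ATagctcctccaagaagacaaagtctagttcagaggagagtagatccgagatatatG
GOLGA2, chr9:128272785-128272865, minus strand: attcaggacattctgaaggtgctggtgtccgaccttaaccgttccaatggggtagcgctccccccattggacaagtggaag
NCOA5, chr20:46070444-46070536, minus strand: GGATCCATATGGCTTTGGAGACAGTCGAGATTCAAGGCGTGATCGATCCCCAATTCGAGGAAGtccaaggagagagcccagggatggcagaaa
In the NCOA5 sequence the capitals mark the 63 bases that a shortened form of the exon lacked, and the 30 bases after them are in lower case. LGALS9, ZPR1, RCN2 and GOLGA2 have no capitals because their exons begin and end between codons.

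The targeted gene itself had a frame-preserving cassette exon in the knockout-labelled library. Total NCOA5 was not lower there, at 25.4 FPKM in the knockout-labelled library and 20.03 FPKM in wild type. The knockout-labelled library listed exon 3 of 8 (chr20:46070210-46070536), a wholly coding exon of 327 bases or 109 codons, in a form with the exon at 11.9 FPKM and a form without it at 9.55 FPKM, an inclusion of 55.5%. It also listed a shortened exon of 264 bases (chr20:46070210-46070473) at 3.97 FPKM. The shortened exon lacked the first 63 bases, or 21 codons, and the last bases of the missing stretch, AG, are the letters that end an intron at an acceptor site. Together the form without the exon and the shortened form made up 53.2% of the 25.4 FPKM of the 3 forms. Each of the changed forms kept the frame, and neither the skipping junction nor the shortened exon is in GENCODE 29. Wild type listed no event at this exon.

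**Figure D1:**
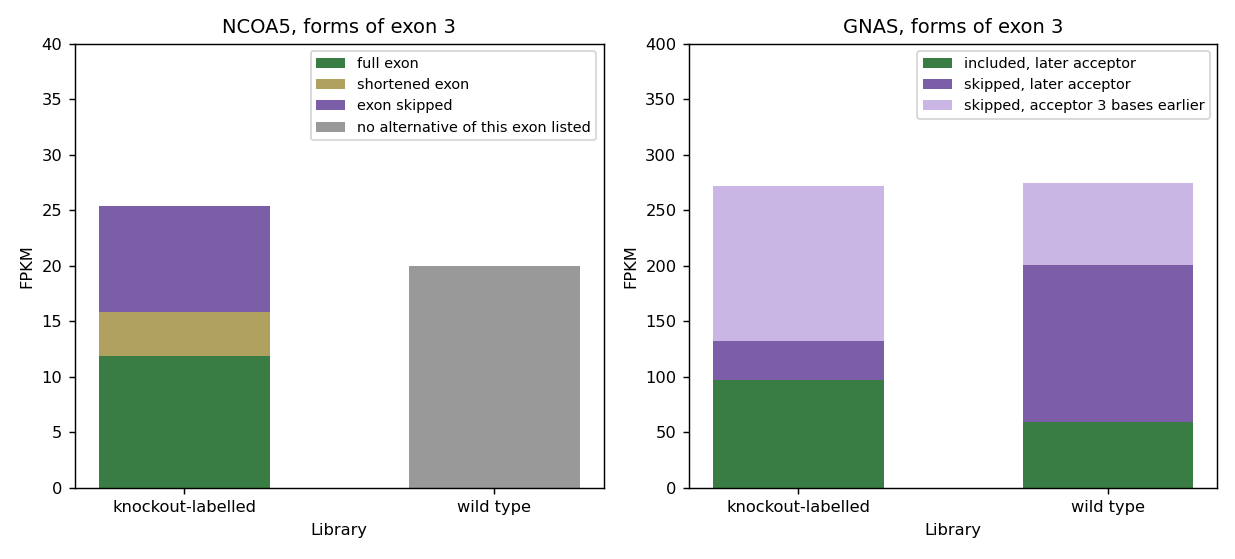
Level in FPKM (vertical axes) of the forms of the 327-base NCOA5 exon and the 45-base GNAS exon, knockout-labelled library left and wild type right in each panel. The knockout-labelled NCOA5 bar is divided into the full exon (11.9), the shortened exon (3.97) and skipping (9.55), while the wild-type bar is the gene's level, since no alternative of the exon was listed there; in GNAS the included form is 96.9 in the knockout-labelled library and 59.6 in wild type, and the skipping forms divide differently between 2 acceptors.

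The markers of a liver cell and of other cell types were read from the same tables. Of 8 hepatocyte genes, 4 were at 1 FPKM or more in both libraries. HNF4A, the hepatocyte transcription factor, was at 17.4 FPKM in the knockout-labelled library and 17.5 FPKM in wild type. The list summed to 32.6 FPKM in the knockout-labelled library and 30.3 FPKM in wild type. FGB was at 4.73 FPKM (knockout-labelled) and 1.37 FPKM (wild type), ALB at 2.92 FPKM (knockout-labelled) and 1.41 FPKM (wild type), and AFP at 6.48 FPKM (knockout-labelled) and 8.80 FPKM (wild type). APOA1, APOB, SERPINA1 and TTR were under 1 FPKM in both, with SERPINA1 listed at 0 in wild type. The fibroblast markers summed to 29.4 FPKM in the knockout-labelled library and 14.8 FPKM in wild type, nearly all of it LUM, while COL1A1 was under 0.1 FPKM in both. Endothelial markers summed to 6.45 FPKM in the knockout-labelled library and 2.81 FPKM in wild type. Of this KDR made up 5.20 FPKM (knockout-labelled) and 1.43 FPKM (wild type). PECAM1 was at 1.20 FPKM (knockout-labelled) and 1.28 FPKM (wild type), while CDH5 and VWF were under 0.1 FPKM in both. The 3 measured leukocyte markers summed to 1.91 FPKM in the knockout-labelled library and 0.958 FPKM in wild type, mostly LYZ, with CD14 listed at 0 in both. The part of these differences in the exon differences below was not tested. Of all listed events, 25.5% were above 0 in the knockout-labelled library and 25.3% in wild type, and the sequencing depth is unknown.

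Most frame-preserving exons were either always in or always out. Of the 5270 compared pairs, 2208 (41.9%) had only the form with the exon above 0 in both libraries, and 1859 (35.3%) had only the form without it. Both forms were above 0 in both libraries in 761 pairs (14.4%), which fell in 687 genes. The other 442 pairs (8.39%) had a form listed at 0 in 1 library and above 0 in the other. An exact 0 in these tables can be a failed estimate, so the 761 pairs carry the comparisons below and the 442 are described apart.

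Use of both forms at once was more frequent in frame-preserving exons than in exons that shift the frame. In the knockout-labelled library both forms were above 0 in 18.6% of frame-preserving pairs, and in wild type in 18.4%. Among the 7045 frame-shifting pairs compared, the share was 9.98% in the knockout-labelled library and 10.1% in wild type. Exons with 1 base over a multiple of 3 stood at 10.3% in the knockout-labelled library and 10.5% in wild type, and exons with 2 bases over at 9.66% (knockout-labelled) and 9.83% (wild type). Among exons over 27 bases the step was thus at the multiple of 3 itself, and its size was nearly the same in both libraries. Exons of 27 bases or fewer, of any remainder, had higher shares. They stood at 27.5% in the knockout-labelled library and 27.8% in wild type, of 353 pairs. The pairs of 1 library share genes, loci and annotation and are not replicates, so these shares are a description.

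The gap between the classes was widest in wholly coding exons. Of wholly coding frame-preserving pairs, 16.9% of 3737 had both forms above 0 in both libraries, beside 7.33% of 3372 wholly coding frame-shifting pairs. Partly coding exons stood at 15.3% of 275 frame-preserving and 12.1% of 563 frame-shifting pairs. In exons of untranslated regions the 2 shares were 11.7% of 445 and 11.8% of 980. A further group of exons was present only in transcripts without a coding label, meaning transcripts not labelled protein-coding. It stood at 3.85% of 806 frame-preserving pairs and 2.89% of 2110 frame-shifting pairs. In genes that had compared pairs of both classes, the share was 12.4% of 3387 frame-preserving pairs and 5.93% of 3960 frame-shifting pairs.

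**Figure D2:**
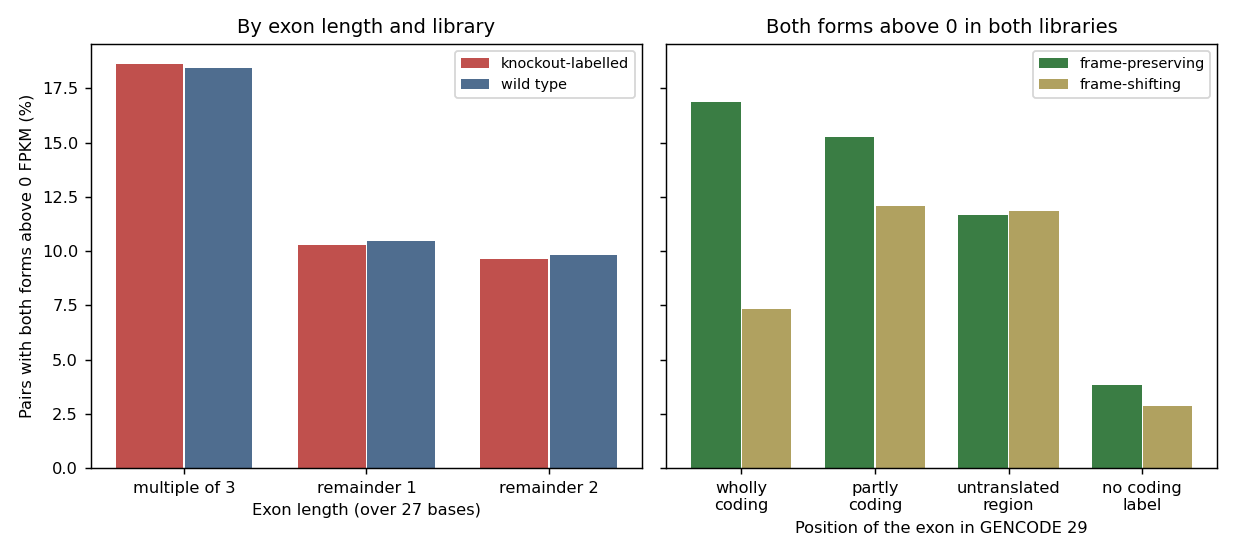
Percentage of compared exon pairs with both forms above 0 FPKM (vertical axes): left, in each library by exon length modulo 3, knockout-labelled before wild type; right, in both libraries at once by the exon's position in GENCODE 29. Frame-preserving exons stand at 18.6% (knockout-labelled) and 18.4% (wild type), frame-shifting exons at 9.66% to 10.5%, and in untranslated regions the classes are at 11.7% and 11.8%.

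The order of the classes was the same across lengths and levels. Frame-preserving exons had the higher share in each of 6 length ranges: 18.2% beside 8.95% for 28 to 60 bases, and 14.1% beside 6.02% for exons over 200 bases. They also had it in each of 4 ranges of the mean level of the 2 libraries. The shares were 15.6% beside 8.61% at 5 to 10 FPKM, and 11.7% beside 6.08% at 50 FPKM or more. Among wholly coding frame-preserving exons the share was 15.9% of 1954 that begin between codons, 19.3% of 1171 that begin after the first base of a codon, and 15.4% of 612 that begin after its second base. Where skipping such an exon makes a codon out of parts of 2 others, that codon was a stop in 10 of 1757 compared pairs (0.569%). It was a stop in 0 of the 317 with both forms above 0. The 317 are part of the 1757, and at so low a share they are too few to show a difference.

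Inclusion of the 761 exons was alike in the 2 libraries for most members. The median inclusion was 53.2% in the knockout-labelled library and 52.3% in wild type. The median difference, knockout-labelled minus wild type, was 0.711 percentage points, and 407 pairs lay above 0 and 354 below. Without regard to sign the median difference was 6.35 points (quartiles 2.80 and 11.8), 521 pairs (68.5%) lay within 10 points, and the largest was 53.4 points. Across these pairs, which share libraries and partly genes, Pearson's r of the 2 inclusions was 0.845 and Spearman's coefficient 0.840 (n = 761 pairs). Neither library had generally more inclusion than the other.

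A difference of at least 20 percentage points was called higher or lower by its size alone. By that rule 29 of the 761 pairs were higher in the knockout-labelled library and 28 were lower, together 7.49%. Among all cassette pairs with both forms above 0 the called share was 9.72% (131 of 1348), with 5.04% higher and 4.67% lower. Among frame-shifting pairs it was 13.2% (67 of 506), with 6.52% higher and 6.72% lower, so the frame-preserving share lay below the background. The frame-shifting share was the higher of the 2 in each of 4 ranges of level, here the level in whichever library had less. At 5 to 10 FPKM it was 18.2% of 154 beside 7.96% of 201. At 50 FPKM or more it was 8.86% of 79 beside 2.83% of 106. By length and coding status the order did not always hold. The frame-shifting share was lower at 151 to 200 bases (5.56% of 72 beside 6.82% of 88) and higher in the other length ranges. It was lower in untranslated regions (7.76% of 116 beside 9.62% of 52) and in exons without a coding label (13.1% of 61 beside 16.1% of 31). In wholly coding exons it was higher (16.6% of 247 beside 7.45% of 631), as in partly coding ones. Counting also pairs with a form listed at 0, 185 of 5270 frame-preserving pairs were higher and 165 lower (6.64%). The background was 5.94% of all 12668 compared cassette pairs (3.18% higher, 2.76% lower) and 5.27% of frame-shifting ones (2.80% higher, 2.47% lower), near the frame-preserving share. Of those 350 pairs, 293 rest on a form listed at 0.

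**Figure D3:**
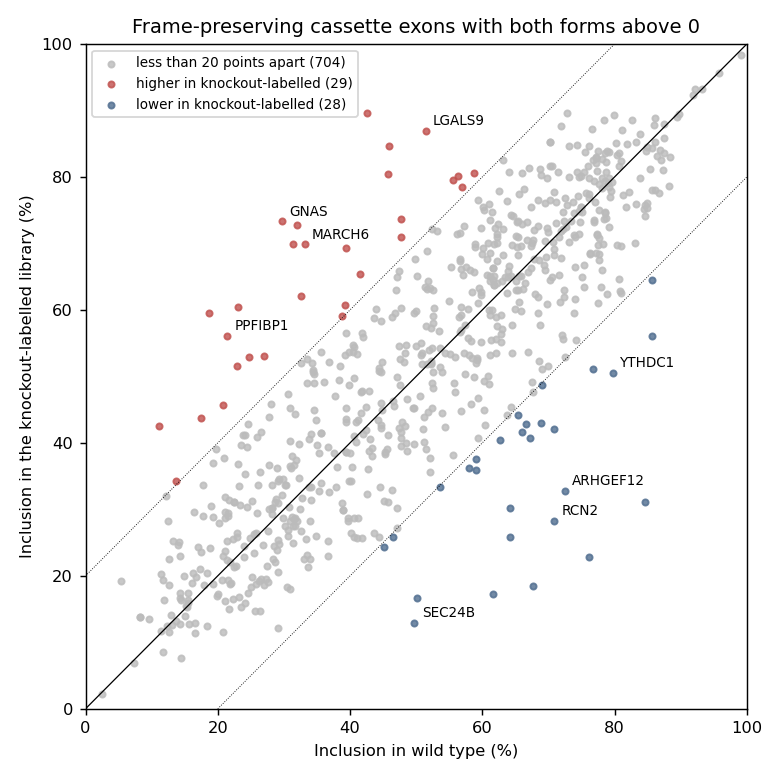
Inclusion in percent of the 761 frame-preserving exon pairs with both forms above 0, knockout-labelled library on the vertical axis against wild type on the horizontal axis; the solid line marks equality and the dotted lines 20 percentage points. The 29 red points are higher in the knockout-labelled library, the 28 blue points lower, and the remaining 704 grey points lie along the solid line.

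The called pairs were mostly switches between forms rather than changes of 1 form. In 26 of the 29 higher pairs the form with the exon was higher and the form without it lower in the knockout-labelled library, and in 26 of the 28 lower pairs the reverse held. For the 29 higher pairs the median log2 ratio, knockout-labelled over wild type, was 0.89 for the form with the exon, -0.69 for the form without it, and 0.14 for the sum. For the 28 lower pairs the medians were -0.96, 0.93 and 0.0017. Since a call is made on the share, opposite signs of the forms are in part built into it; among the 704 pairs not called, 384 had forms of opposite sign. Median inclusion of the higher pairs was 69.3% in the knockout-labelled library and 33.2% in wild type, and of the lower pairs 36.0% (knockout-labelled) and 66.3% (wild type). The exons were of common size, with median lengths of 87 and 97.5 bases, beside 99 over all 761. Wholly coding were 25 of the 29 (86.2%) and 22 of the 28 (78.6%), near the 82.9% of all 761.

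An exon can have several flanking junctions, and its forms are then spread over several pairs. Of the 57 called pairs, 49 had no other pair above 0, so that adding the forms over all pairs of the exon could not change them. Of the 8 that had one, 3 kept their call after the addition. The exons of BCAS1, GNAS, NPRL3, POLR2D and ZNF195 fell short of 20 points, and their calls depended on which junctions were read.

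The exons with the largest differences at 10 FPKM or more in each library are described next, 11 in each direction and ordered by what their genes do. GNAS encodes the alpha subunit of the stimulatory G protein, which couples hormone receptors to adenylyl cyclase, and its 45-base exon (exon 3 of 13, 15 codons) separates the long from the short form of the protein. Joined to the later acceptor behind it, the form with the exon was at 96.9 FPKM and the form without it at 35.2 FPKM in the knockout-labelled library, against 59.6 FPKM and 141 FPKM in wild type. Inclusion in that pair was 73.4% in the knockout-labelled library and 29.7% in wild type. A second acceptor lies 3 bases earlier, and the form that skips to it was at 140 FPKM in the knockout-labelled library and 74.2 FPKM in wild type, with the form that includes the exon listed at 0 in both. Over all pairs of the exon, inclusion was 35.6% in the knockout-labelled library and 21.7% in wild type, a difference of 13.95 points. The libraries therefore differed more in which of the neighbouring acceptors the short form used than in the share of the long form.

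Other signalling and cytoskeletal genes had both signs. ARHGEF12, an exchange factor for small GTPases, had its 57-base exon 4 of 41 (19 codons) at 6.37 FPKM included and 13.05 FPKM skipped in the knockout-labelled library, against 16.0 FPKM and 6.09 FPKM in wild type, inclusions of 32.8% (knockout-labelled) and 72.5% (wild type). PPP1R12A, the subunit that targets protein phosphatase 1 to myosin, had a 168-base exon (chr12:79806166-79806333) included at 42.9% in the knockout-labelled library and 68.9% in wild type. Both were lower in the knockout-labelled library by more than 20 points, the first through a near mirror exchange of the forms. PPFIBP1, or liprin-beta-1, an adaptor protein, had its 33-base exon included at 56.1% in the knockout-labelled library (11.1 FPKM with and 8.69 FPKM without). In wild type its inclusion was 21.4% (3.34 FPKM with and 12.3 FPKM without). NDE1, which regulates the motor dynein, had a 120-base exon (chr16:15651931-15652050) at 17.3% in the knockout-labelled library and 61.7% in wild type. That NDE1 exon occurs in GENCODE 29 only in transcripts without a coding label, so whether its multiple of 3 matters to a protein was not shown.

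Named exons of genes that act in membrane traffic or build organelles had both signs. SEC24B selects cargo for the COPII coat, which buds vesicles from the endoplasmic reticulum; its 93-base exon 2 of 25 (chr4:109449417-109449509) was at 1.56 FPKM included and 10.5 FPKM skipped in the knockout-labelled library, against 5.03 FPKM and 5.08 FPKM in wild type. Its inclusion was 12.9% in the knockout-labelled library and 49.7% in wild type. GOLGA2, or GM130, a matrix protein of the cis-Golgi, had an 81-base exon (chr9:128272785-128272865) at 30.3% in the knockout-labelled library and 64.2% in wild type. These exons were lower in the knockout-labelled library, while the next 3 were higher. CNIH1, a cargo receptor for export from the endoplasmic reticulum, had a 144-base exon (chr14:54430261-54430404) at 69.9% in the knockout-labelled library and 31.4% in wild type. HPS1, a subunit of a complex that builds lysosome-related organelles, had a 99-base exon (chr10:98429791-98429889) at 72.8% in the knockout-labelled library and 32.0% in wild type; its form with the exon differed little, at 11.4 FPKM (knockout-labelled) and 9.75 FPKM (wild type), and its form without it was at 4.25 FPKM (knockout-labelled) and 20.7 FPKM (wild type). RAB11FIP1, which binds Rab11 on recycling endosomes, had a 1902-base exon of 634 codons at 42.5% in the knockout-labelled library and 11.1% in wild type.

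Among the named nuclear and RNA-related genes, 4 of 6 exons were lower. The 22 named exons were fixed at 11 in each direction, so this count shows no general direction. SMARCD1, a subunit of SWI/SNF chromatin remodellers, had a 123-base exon (chr12:50087363-50087485) at 42.0% in the knockout-labelled library and 70.8% in wild type. YTHDC1, which binds N6-methyladenosine in nuclear RNA, had its 54-base exon at 50.5% in the knockout-labelled library (12.1 FPKM with and 11.8 FPKM without) and 79.8% in wild type (19.2 FPKM with and 4.87 FPKM without). RBM28, a nucleolar RNA-binding protein, had a 102-base exon (chr7:128341118-128341219) at 25.8% in the knockout-labelled library and 64.2% in wild type. Lower inclusion was also found in SNHG16, a long noncoding RNA that hosts small nucleolar RNAs, at 56.1% in the knockout-labelled library and 85.7% in wild type: its form with the exon was at 14.3 FPKM (knockout-labelled) and 57.1 FPKM (wild type), and its form without it at 11.2 FPKM (knockout-labelled) and 9.52 FPKM (wild type). TNRC6A and ZPR1 had higher inclusion. TNRC6A, a partner of Argonaute in silencing by microRNAs, had a 177-base exon (chr16:24793473-24793649) at 60.5% in the knockout-labelled library and 23.0% in wild type. ZPR1, a zinc finger protein, had its 87-base exon at 80.5% (knockout-labelled) and 45.7% (wild type).

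The remaining named exons lie in genes of the endoplasmic reticulum, of metabolism and of the cell surface. CRTAP, part of the complex that hydroxylates collagen prolines, had a 129-base exon (chr3:33129939-33130067) at 89.0 FPKM included and 54.5 FPKM skipped in the knockout-labelled library, against 24.3 FPKM and 50.2 FPKM in wild type. Its inclusion was 62.1% in the knockout-labelled library and 32.6% in wild type. Here the form without the exon hardly differed and the sum of the forms was higher in the knockout-labelled library. MARCH6, a ubiquitin ligase of the endoplasmic reticulum, had a 144-base exon (chr5:10381800-10381943) at 69.9% in the knockout-labelled library and 33.2% in wild type. Both were higher, whereas RCN2, a calcium-binding protein of the same compartment, had its 54-base exon at 28.3% in the knockout-labelled library (5.75 FPKM with and 14.6 FPKM without) and 70.9% in wild type (9.56 FPKM with and 3.93 FPKM without). LGALS9, the sugar-binding lectin galectin-9, had its 36-base exon at 87.0% in the knockout-labelled library and 51.5% in wild type. MMAB, an enzyme of cobalamin metabolism, was higher at 84.7% in the knockout-labelled library and 45.9% in wild type, and UMPS, an enzyme of pyrimidine synthesis, was lower at 16.6% (knockout-labelled) and 50.2% (wild type); both exons occur only in transcripts without a coding label.

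**Figure D4:**
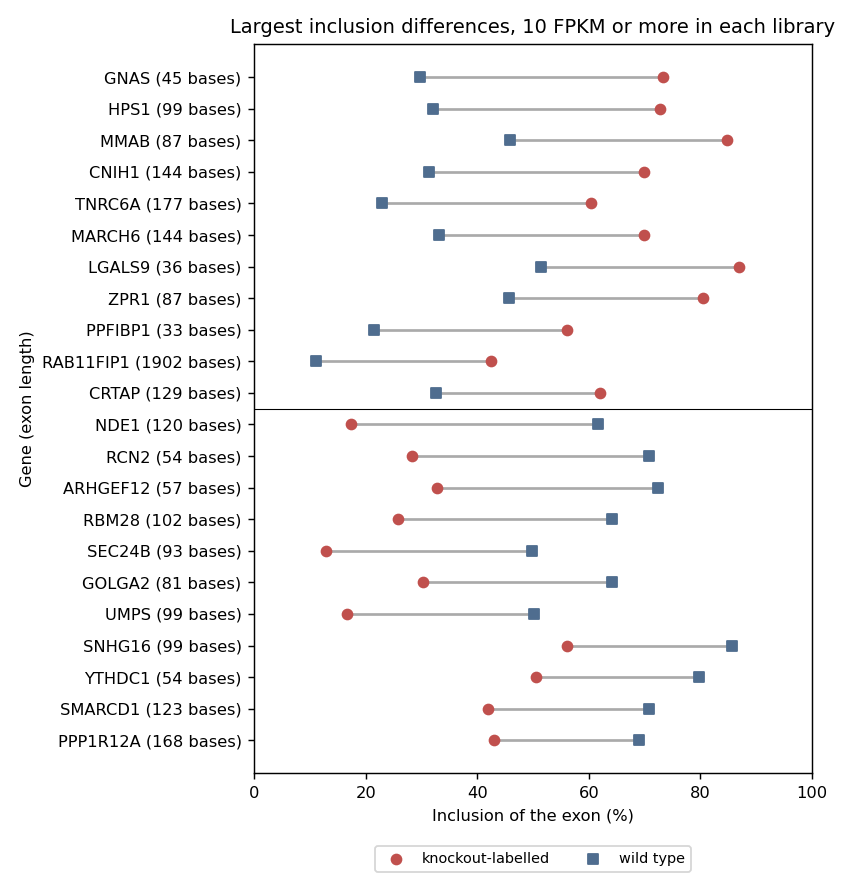
Inclusion in percent (horizontal axis) of the 22 named exons, with the knockout-labelled library as red circles and wild type as blue squares; inclusion is higher in the knockout-labelled library in the upper 11 and lower there in the bottom 11. The gaps run from 26.0 points in PPP1R12A to 44.4 points in NDE1; the GNAS gap is 13.95 points over all pairs of its exon.

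Exons of genes that epithelial and mesenchymal cells splice differently, the process named in the series title, were read as a list. In the knockout-labelled library 4 of its 103 compared pairs had higher and 4 had lower inclusion (7.77%, beside 6.64% of all frame-preserving pairs), and each of the 8 had a form listed at 0. The largest were a 30-base exon of CLSTN1, a membrane protein that binds the kinesin motor, at 0% in the knockout-labelled library and 50.2% in wild type, a 39-base exon of SEC31A, of the COPII coat, at 41.1% (knockout-labelled) and 0% (wild type), and a 45-base exon of the kinase MARK3 at 36.9% (knockout-labelled) and 0% (wild type). In the 28 pairs with both forms above 0, 0 were called, beside 7.49% of all 761, and the median difference was 0.50 points, beside 0.711 over all 761. The nearest to a call were OSBPL3, an oxysterol-binding protein, with a 93-base exon at 55.7% in the knockout-labelled library and 72.3% in wild type, ARHGEF11, an exchange factor for small GTPases, with a 120-base exon at 52.9% in the knockout-labelled library and 72.5% in wild type, EPB41, a membrane skeleton protein, with a 63-base exon at 44.2% (knockout-labelled) and 63.7% (wild type), and EXOC7, a subunit of the exocyst, with a 93-base exon at 36.9% (knockout-labelled) and 19.3% (wild type). Other exons of the list, chosen after their values were seen, were closer. The 81-base exon of the kinase MAP3K7 was at 44.9% in the knockout-labelled library and 44.8% in wild type, and the 36-base exon of the splicing factor MBNL1 at 73.4% (knockout-labelled) and 73.3% (wild type). ENAH, an actin regulator, had its 63-base exon at 8.50% in the knockout-labelled library and 11.7% in wild type. The 57-base exon of RAC1, a GTPase of cell movement, was listed at 0 in both libraries, beside 215 FPKM of the skipping form in the knockout-labelled library and 191 FPKM in wild type. In CD44, a hyaluronan receptor, exons of 126 and 204 bases were likewise listed at 0 in both libraries, beside skipping forms of 65.2 FPKM (knockout-labelled) and 57.7 FPKM (wild type). No pair of INSR, of the kinase list below, or of FAS, of the cell death list below, was compared.

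In cytoskeletal and adhesion genes, 3 of 117 compared pairs were higher and 5 lower (6.84%, near the 6.64% of all 5270), and of 27 with both forms above 0, 0 were higher and 2 lower (7.41%, near the 7.49% of all 761). The 270-base extra domain exon of FN1, the matrix protein fibronectin, was at 537 FPKM included and 209 FPKM skipped in the knockout-labelled library, against 633 FPKM and 301 FPKM in wild type. That gave inclusions of 72.0% (knockout-labelled) and 67.8% (wild type), close to each other at a high level. Its other extra domain exon, of 273 bases, was listed at 0 in both libraries, beside 745 FPKM skipped in the knockout-labelled library and 934 FPKM in wild type. Lower inclusion was found in the 30-base exon of MYH10, nonmuscle myosin IIB, at 24.4% in the knockout-labelled library and 45.1% in wild type. A second MYH10 exon of 63 bases had the same 4.89 FPKM included and 15.2 FPKM skipped in the knockout-labelled library as the first. In wild type its form with the exon was listed at 0. Its inclusion was thus called higher, at 24.4% in the knockout-labelled library and 0% in wild type. Repeated values were found elsewhere: 16 of the 761 pairs shared all of their values with another exon of the gene.

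In genes of vesicle and membrane traffic, 6 of 85 pairs were higher and 3 lower (10.6%, beside 6.64% of all 5270). Of 18 with both forms above 0, 1 was higher and 2 lower (16.7%, beside 7.49% of all 761), namely RAB11FIP1, SEC24B and GOLGA2 as above. The median difference without regard to sign was 12.8 points in those 18 pairs, beside 6.35 over all 761. With its sign the median difference was -0.281 points, beside 0.711 over all 761. In kinase, GTPase and phosphatase genes, 5 of 116 pairs were higher and 4 lower (7.76%, beside 6.64% of all 5270), and of 24 with both forms above 0, 1 was higher and 2 lower (12.5%, beside 7.49% of all 761). The higher one was MARK2, a kinase of cell polarity, with a 162-base exon at 51.5% in the knockout-labelled library and 22.9% in wild type. MAP3K3 lay just short of a call, with its 93-base exon at 47.7% in the knockout-labelled library and 67.6% in wild type.

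In nuclear receptor coregulators, chromatin and transcription genes, the class to which NCOA5 belongs, 6 of 139 pairs were higher and 7 lower (9.35%, beside 6.64% of all 5270). Of 32 with both forms above 0, 1 was higher and 2 lower (9.38%, beside 7.49% of all 761). The higher one was the 63-base exon (chr7:74718879-74718941) of GTF2I, the transcription factor TFII-I. It was at 8.35 FPKM included and 10.8 FPKM skipped in the knockout-labelled library, against 7.64 FPKM and 36.0 FPKM in wild type. GTF2I has near-identical partial copies in the genome, between which reads could be split. SMARCD1 was among the lower ones, as above. The median difference of the 32 pairs was 3.43 points, beside 0.711 over all 761. Without regard to sign it was 7.21 points, beside 6.35 over all 761. The medians of the metabolism (2.91), splicing (1.91) and kinase lists (1.89) also lay above 0.711, and those of the other lists below it.

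In genes of splicing and RNA binding, 0 of 96 pairs were higher and 1 lower (1.04%, beside 6.64% of all 5270). Of 13 with both forms above 0, 0 were called, beside 7.49% of all 761. PTBP1, a splicing repressor, had its 78-base exon at 54.7% in the knockout-labelled library and 48.5% in wild type, and HNRNPD, an RNA-binding protein, its 57-base exon at 83.0% (knockout-labelled) and 77.1% (wild type). Both stood over 100 FPKM in each library, and both were within 10 points. TRA2B, a splicing activator, has a 276-base exon known to carry stop codons, so that its length, although a multiple of 3, does not keep translation going. Its form with the exon was at 14.9 FPKM and its form without it at 76.6 FPKM in the knockout-labelled library, against a listed 0 and 48.8 FPKM in wild type. The single lower pair was the 93-base exon of PCBP2, a binder of poly-C, included at 66.3% in the knockout-labelled library, while in wild type the skipping form was listed at 0.

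In genes of cell death, cell cycle and DNA repair, 6 of 81 pairs were higher and 2 lower (9.88%, beside 6.64% of all 5270), and in those of liver cell metabolism, 0 of 63 were higher and 1 lower (1.59%). Of 12 and 4 pairs with both forms above 0, 0 were called, beside 7.49% of all 761. APAF1, the core of the apoptosome, had a 129-base exon at 59.5% in the knockout-labelled library and 73.9% in wild type. ETFA, a mitochondrial electron carrier, had a 147-base exon at 71.4% in the knockout-labelled library and 56.2% in wild type, and ACLY, which makes acetyl-CoA for lipid synthesis, its 30-base exon at 65.0% (knockout-labelled) and 63.4% (wild type). All 3 lay within 20 points.

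In 442 pairs a form was listed at 0 in 1 library, and 11 of them (0.209% of the 5270) changed from inclusion alone to skipping alone or the reverse. These counts were not made for other cassette exons, so they show nothing particular to frame-preserving ones. SS18, a SWI/SNF subunit, and DDX54, an RNA helicase, had skipping forms of 21.7 FPKM and 45.0 FPKM in wild type that were listed at 0 in the knockout-labelled library. In the other direction PDHA1, a subunit of pyruvate dehydrogenase, had its 84-base exon listed at 0 in the knockout-labelled library beside 75.0 FPKM skipped, against 27.5 FPKM included and 10.7 FPKM skipped in wild type. BRD8, a subunit of the TIP60 complex, was among the 11, with 8.24 FPKM skipped alone in the knockout-labelled library and 7.84 FPKM included alone in wild type. No fold is given for such forms.

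Pairs listed in 1 library alone differed from the rest in their annotation. At 5 FPKM or more there were 130 such frame-preserving pairs in the knockout-labelled library and 103 in wild type, with both forms above 0 in 101 and 85. Of all frame-preserving pairs listed in both libraries, 99.4% had their skipping junction in GENCODE 29. Of those listed in the knockout-labelled library alone 38.5% had it, and of those in wild type alone 35.7%. Frame-shifting pairs were alike, at 99.5% in both, 43.2% in the knockout-labelled library alone and 39.9% in wild type alone. At 5 FPKM or more 153 and 133 frame-shifting pairs were listed in 1 library alone, so these traits are not particular to frame-preserving exons. The 2 pairs of NCOA5, of the full and the shortened exon, were among the 101 in the knockout-labelled library with both forms above 0. Other pairs stood at higher levels: the exon of VPS35, of the retromer coat, was at 71.3 FPKM included and 13.9 FPKM skipped in the knockout-labelled library alone, and that of PLP2, a membrane protein, at 247 FPKM and 129 FPKM in wild type alone. These were named after their values were seen.

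Values just outside and just inside the limits of the definition were as follows. Pairs of 27-base exons, just too short, had both forms above 0 in 16 of 53, and pairs of 30-base exons in 5 of 37. For the minimum, the level is that in whichever library had less. Pairs with 4 to 5 FPKM, just below the minimum, had both forms above 0 in 61 of 344, and 18 of those 61 were called. Pairs with 5 to 6 FPKM had both forms above 0 in 42 of 343, and 7 of those 42 were called. Both called shares lay above the 7.49% of all 761 pairs with both forms above 0. Over the whole range of 5 to 10 FPKM the called share was 7.96% of 201.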

How the data were processed

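RNA was measured in 2 libraries of LM3, 1 per genotype as labelled. The authors deposited FPKM for each splicing event, per the file headers. Per the submitters' processing notes the build is hg38 and Bowtie 0.12.2 was used, with no role named; for the event caller, its annotation and its filters the sources used here give nothing. Per the labels' protocols the reads were paired ends of 100 bases. The tables hold no read counts, so counting error is unknown.

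Each form with an exon was paired with the form without it by chromosome, exon and flanking junctions. Exons over 27 bases with a length divisible by 3 were kept, and pairs were compared from 5 FPKM in each library. With 1 sample per group no test was run, and 20 percentage points was a rule of size. GENCODE 29 (GRCh38, the same assembly as hg38) gave coding status, codon phase and sequences.

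Named were NCOA5, the 12 largest differences in each direction (10 FPKM, both forms above 0, 1 exon per gene), 3 exons of each of 8 gene lists, and up to 5 in each direction with a form listed at 0. Members and lists were chosen with earlier results of these data known. Up to 4 exons of each list among pairs with both forms above 0, textbook exons of the lists, and the splits by coding status, length and level were added after values were seen; some exons that the rules name, 1 of the 12 in each direction among them, are not reported here. Python 3.11.15, pandas 2.3.3, numpy 2.4.6, scipy 1.17.1 and matplotlib 3.10.9 were used, and the procedure was tested on simulated data. Alternatives were other minimum levels and call sizes, a pseudocount, 1 pair per exon, sums per exon, both forms above 0, and coding exons alone; exons with an annotated skipping junction, and all alternatives for the share with both forms above 0, were added after seeing the data.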

Additional observations from a re-analysis of the deposited data

How the results depend on the processing

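Limits first: 1 library per genotype, unknown depth, zeros that can be failed estimates, overlapping events, and pairs that share genes. No paired analysis was possible because each genotype has 1 library. The cause of the shifts below was not tested except where the setting itself sets the number of pairs.

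The counts of higher and lower pairs (185 and 165) were 360 and 329 at a minimum of 1 FPKM, 123 and 106 at 10 FPKM, 58 and 42 at 20 FPKM, 365 and 305 for calls at 10 percentage points, 101 and 95 at 30 points, and 29 and 28 with both forms above 0. The called share of frame-preserving pairs (6.64%) and of frame-shifting pairs (5.27%) was 9.77% and 7.80% at 1 FPKM, 5.79% and 4.14% at 10 FPKM, 4.16% and 3.52% at 20 FPKM, 12.7% and 8.46% at 10 points, 3.72% and 2.95% at 30 points, and 5.50% and 4.37% with 1 FPKM added to each form. With both forms above 0 the order turned, at 7.49% and 13.2%. Among wholly coding exons the frame-preserving share was 7.52%.

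The median difference of all 5270 pairs (0) was 0.015 points with 1 FPKM added and 0.711 with both forms above 0. Median inclusion (69.0% in the knockout-labelled library, 68.3% in wild type) was 76.9% and 77.0% at 20 FPKM, 53.2% and 52.3% with both forms above 0, and 100% in both for wholly coding exons. The share with both forms above 0 in both libraries (14.4% frame-preserving, 7.18% frame-shifting) was 13.2% and 6.11% at 20 FPKM, and 16.9% for wholly coding frame-preserving exons.

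Calls per list at 10 FPKM were 5 for epithelial and mesenchymal splicing (from 8), 5 for coregulators (from 13), 5 for kinases (from 9) and 4 for cell death (from 8). With both forms above 0 they were 0, 3, 3 and 0 for these, 2 for cytoskeleton (from 8), 3 for vesicle traffic (from 9), 0 for splicing (from 1) and 0 for metabolism (from 1). Of the 22 named differences, the sum per exon changed only GNAS (13.95 points, below 20) and UMPS (-36.2), since the others had no further pair above 0. With 1 FPKM added to each form all 22 kept their side. That was nearly set beforehand, because they were named for large differences at 10 FPKM or more.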
